A study of Mus musculus with 14 samples.

Results

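The insulin-like growth factors and their binding proteins were followed as 10 genes: the ligands Igf1 and Igf2, the receptors Igf1r, Igf2r and Insr, and the binding proteins Igfbp2, Igfbp3, Igfbp4, Igfbp5 and Igfbp6. They were chosen by name, with earlier results of these data known, from a table of 36118 genes measured by RNA-seq in the hippocampus of 14 mice. All 10 passed the filter on low counts that left 16637 genes for testing. The study asked how loss of gasdermin D (GSDMD), a protein that forms membrane pores in pyroptosis, alters the response of the newborn hippocampus to high oxygen. The groups were wild-type mice in room air (WT-RA, n = 4), wild-type mice in hyperoxia (WT-O2, n = 4), GSDMD knockout mice in room air (KO-RA, n = 3) and GSDMD knockout mice in hyperoxia (KO-O2, n = 3). Hyperoxia was 85% O2 from postnatal day 1 to day 14, and polyA RNA was taken on day 15 in all groups. The strain was C57BL/6N, and KO mice and their WT littermates came from matings of heterozygous parents. The KO mice were homozygous in all tissues for a small CRISPR/Cas9 deletion within the fifth exon of Gsdmd, so no cell type was targeted separately.

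Each library came from 1 mouse, and p-values measure only the spread between these mice. The libraries held between 27272270 and 28257496 estimated counts. Gsdmd itself had 22 to 63 counts per library, with CPM (the count relative to the library total, scaled by the TMM method) of 1.47 to 1.80 for WT-RA, 1.83 to 2.23 for WT-O2, 0.817 to 1.47 for KO-RA and 1.32 to 1.5 for KO-O2. Its RNA was therefore still counted in every KO library, and gene-level counts cannot show a deletion within an exon. The study itself reported no GSDMD protein in KO brains by immunostaining and, without showing the data, no measurable transcript by qRT-PCR. Why RNA-seq counts remained was not tested. For WT-O2 mouse 4 the title of the public record gives hyperoxia and another field gives room air. It was kept in WT-O2, and the calls and main differences of IGF family and pathway genes that use WT-O2 are also described without it. The marker results and the interaction values are given only with this mouse included. The WT mice carry one run of animal numbers and the KO mice another, so genotype and number range cannot be told apart.

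IGF1 and IGF2 are small secreted growth factors that signal through the tyrosine kinase receptor IGF1R, and IGF2 also through an isoform of the insulin receptor, to promote survival, growth and differentiation of neural cells. IGF2R is a scavenger that carries IGF2 to lysosomes, and the binding proteins hold the ligands in the extracellular space, where proteases release them. In brain, Igf2 and Igfbp2 are known as products of the choroid plexus and the meninges, whereas Igf1 is made by neurons and glia, and Igf1r and Insr are widely expressed.

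Promoter windows from RefSeq (build GRCm38.p6, 250 bases before to 50 bases after the start) were found for 9 of the 10 genes, as 13 windows. The windows of Igf1r and Igfbp4 are printed because these were the 2 genes called in a comparison below. They were matched by symbol, since the counts were made on GRCm39 and no coordinates were carried between the builds. Capitals mark the GC box GGGCGG, searched on both strands.
Igf1r, chr7:67952007-67952306, plus strand: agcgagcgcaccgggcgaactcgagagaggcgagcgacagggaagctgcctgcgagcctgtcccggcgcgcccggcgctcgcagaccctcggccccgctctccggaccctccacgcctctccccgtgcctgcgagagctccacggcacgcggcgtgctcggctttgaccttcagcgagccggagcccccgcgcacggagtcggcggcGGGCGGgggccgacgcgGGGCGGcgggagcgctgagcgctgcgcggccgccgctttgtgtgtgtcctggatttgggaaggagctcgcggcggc
Igfbp4, chr11:99040994-99041293, plus strand: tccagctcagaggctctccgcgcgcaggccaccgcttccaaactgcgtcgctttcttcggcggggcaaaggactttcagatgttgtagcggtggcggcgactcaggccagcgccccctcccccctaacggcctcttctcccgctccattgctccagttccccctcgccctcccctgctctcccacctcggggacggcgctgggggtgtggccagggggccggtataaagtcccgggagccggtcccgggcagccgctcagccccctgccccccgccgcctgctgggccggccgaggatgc
The Igf1r window held 2 GC boxes, 3 matches to the hypoxia response core (ACGTG or GCGTG, either strand) and no TATAAA, and its GC content was 76%. The Igfbp4 window held no GC box, no hypoxia response core and 1 TATAAA, with a GC content of 71.3%. Among all 32851 windows of this length, 35.7% held a GC box, 43.8% a hypoxia response core and 13.6% a TATAAA on either strand, and the median GC content was 52.7%. Of the 13 windows of the family, 5 held a GC box, 7 a hypoxia response core and 2 a TATAAA. The FoxO motif GTAAACA, which 3.65% of all windows held, was in none of the 13. These letter matches are descriptions of the windows, and no binding was measured.

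Per length, Igfbp2, Igfbp5, Igf2 and Igfbp4 were the most abundant transcripts of the family and Igfbp6 the least. On the scale of CPM per kb of exon (mean of the 14 libraries), the order was Igfbp2 at 52.1, Igfbp5 at 37.9, Igf2 at 34.9, Igfbp4 at 21.4, Igfbp3 at 8.81, Insr at 4.53, Igf1r at 3.91, Igf2r at 3.68, Igf1 at 1.98 and Igfbp6 at 1.43. Of the 9 pairs of neighbours in this order, Igfbp4 over Igfbp3, Igfbp3 over Insr and Igf2r over Igf1 did not overlap in any library. The other neighbours overlapped, so that Igfbp2, Igfbp5, Igf2 and Igfbp4 form one overlapping series and the 3 receptors another. Exon lengths came from GENCODE models on another build, so this order is approximate.

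**Figure D1:**
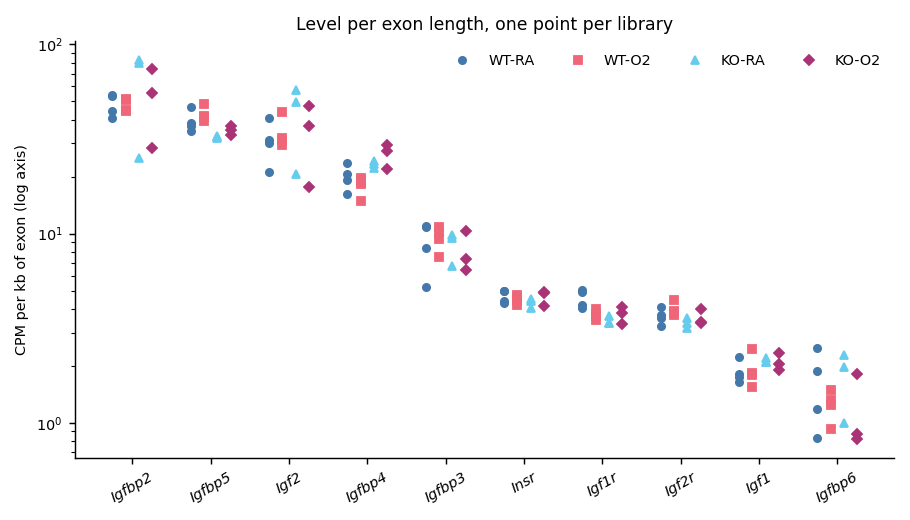
Level of each of the 10 genes in CPM per kb of exon (log axis), 1 point per library, with colour and shape giving the group. Igfbp4 (14.9 to 29.2) lies above Igfbp3 (5.20 to 11.0), Igfbp3 above Insr (4.06 to 4.98), and Igf2r (3.18 to 4.47) above Igf1 (1.55 to 2.44) in all 14 libraries.

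Within the binding proteins, Igfbp2 made up between 28.3% and 55.4% of their summed CPM per kb, with a median of 41.2%. Igfbp5 made up 21.7% to 38.2% and Igfbp4 11.8% to 26.4%. Igfbp3 made up 4.67% to 9.15% and Igfbp6 0.593% to 2.05%. Igfbp6 rested on only 25 to 77 counts per library, so its values carry the largest counting error of the family.

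Hyperoxia in WT mice (WT-O2 vs WT-RA) changed none of the 10 genes at the thresholds used, which were a log2 difference of at least 0.32 in size, an unadjusted p below 0.05 and a Benjamini-Hochberg adjusted p below 0.1 over all genes tested, from edgeR's quasi-likelihood F-test. In this comparison 0.643% of all genes were called, 107 in number, a count that ran from 13 without WT-O2 mouse 2 to 272 without WT-RA mouse 1. At an unadjusted edgeR p below 0.05 there was 1 gene of the 10, Igf1r, against 12.2% of all genes, and DESeq2 also called 0 of the 10. Igf1r was also the 1 gene of the 10 whose WT-O2 and WT-RA values did not overlap, against 5.99% of all genes. The median log2 difference of the 10 genes was 0.01, beside -0.01 for all genes.

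Hyperoxia in KO mice (KO-O2 vs KO-RA) likewise gave no call among the 10 genes, in a comparison where 0.012% of all genes were called. None of the 10 had an unadjusted edgeR p below 0.05, against 4.86% of all genes, and DESeq2 also called 0. Igfbp5 was the 1 gene of the 10 whose groups did not overlap, against 11.8% of all genes. In the interaction of genotype and exposure 0% of all genes were called by edgeR and none of the 10, while Igf1r was the 1 gene of the 10 with an unadjusted p below 0.05, against 4.05% of all genes.

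Genotype gave 2 calls in the family, each in a single comparison. Igf1r was lower in KO-RA than in WT-RA, where 10.4% of all genes were called. Igfbp4 was higher in KO-O2 mice than in WT-O2 mice, where 6.86% of all genes were called. Both shares of 1 in 10 lie near these backgrounds. At an unadjusted edgeR p below 0.05 there were 2 genes of the 10 in each comparison, Igf1r and Igfbp5 in room air and Igfbp4 and Igfbp5 in hyperoxia, against 23.5% and 18.7% of all genes. The same pairs did not overlap between genotypes, against 19.6% and 19% of all genes. The median log2 difference of the 10 genes was 0.06 in room air and 0.00 in hyperoxia, beside -0.01 for all genes in both. The comparisons share groups of mice, so their results are not independent of each other.

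**Figure D2:**
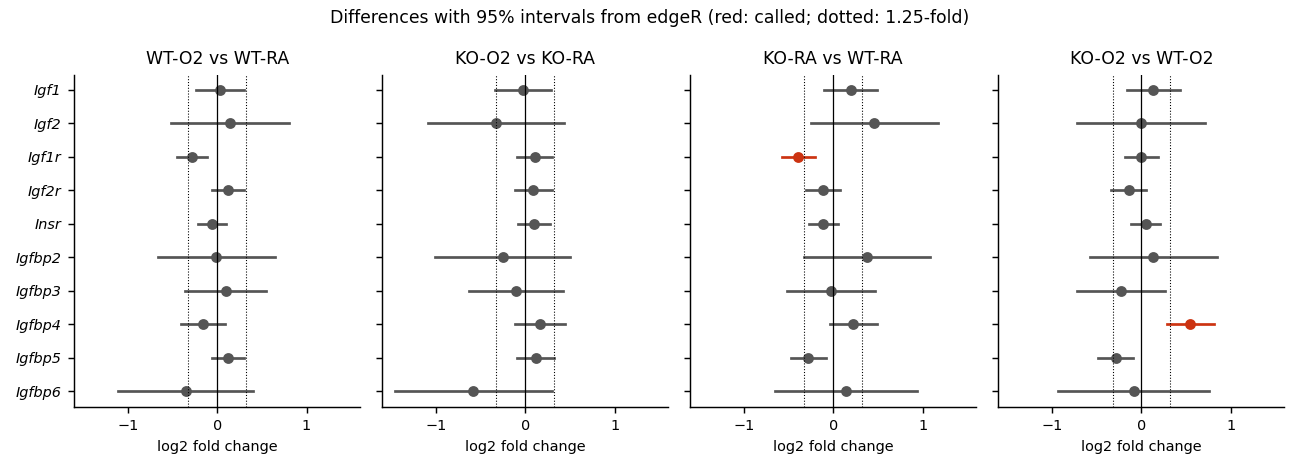
Log2 fold change of each of the 10 genes with its 95% interval from edgeR, in the 4 comparisons. Called genes are red and dotted lines mark the log2 difference of 0.32 that a call needs. The calls are Igf1r in KO-RA vs WT-RA (-0.39) and Igfbp4 in KO-O2 vs WT-O2 (0.55), and the intervals of Igf2, Igfbp2 and Igfbp6 are the widest.

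These genotype comparisons come with differences in the region and cell type markers of the tissue. Of 10 markers of hippocampal fields, 10 were called higher in KO mice under room air and 7 under hyperoxia, and their summed CPM was 619 to 888 for WT-RA, 826 to 1013 for WT-O2, 1293 to 1602 for KO-RA and 1340 to 1564 for KO-O2. Of 10 striatal markers, 10 were called lower in both comparisons, with sums of 604 to 868, 411 to 951, 160 to 268 and 174 to 183 CPM in the same order of groups. Of 10 thalamic markers, 7 were called lower in both, with sums of 152 to 965, 302 to 737, 185 to 202 and 190 to 199 CPM. Of 10 oligodendrocyte markers, 10 were called lower in room air and 6 in hyperoxia, with sums of 8058 to 20110, 5043 to 13410, 3475 to 5569 and 3445 to 6045 CPM. All hippocampal field markers were counted in every library, and 1 striatal and 1 thalamic marker were at 0 in a library. Of the other lists, interneurons had 1 marker higher and 4 lower in room air and 1 higher and 2 lower in hyperoxia, astrocytes had 2 of 10 higher in both, fibroblasts 2 of 12 higher in room air alone, and mural cells 1 of 10 lower in both. Microglial, endothelial and choroid plexus lists had no called marker. None of these lists had a called marker under hyperoxia in either genotype, although some leaned 1 way. In WT-O2 vs WT-RA, 10 of 10 oligodendrocyte markers were lower (median log2 difference -0.63), as were 11 of 12 choroid plexus markers (-0.24). Of hippocampal field markers 9 of 10 were higher (0.27), and of fibroblast markers 10 of 12 (0.26). In KO-O2 vs KO-RA, 9 of 10 oligodendrocyte markers (-0.11) and 12 of 12 choroid plexus markers (-0.38) were lower. The part of these markers in the results for Igf1r, Igfbp4 and Igfbp5, between genotypes or under hyperoxia, was not tested. Within the 8 WT mice, the thalamic score (mean standardized log2 CPM) gave the largest Pearson's r in size for Igfbp4, -0.869, and Igfbp5, 0.815. Their exact permutation p was 0.00878 and 0.0153, and the Benjamini-Hochberg adjusted p over 220 relations 0.322 and 0.437. For Igf1r the endothelial score gave the largest, 0.848 (exact permutation p = 0.0067, adjusted p = 0.295). In the 6 KO mice these r were 0.568, 0.242 and -0.0476. In bulk tissue, fewer cells of a type and less RNA per cell cannot be told apart.

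Igf1, the ligand of highest affinity for IGF1R, lay between 15.3 and 24.2 CPM in all 14 libraries. Its group means were 18.4 ± 2.59 for WT-RA (SD, n = 4), 18.9 ± 3.76 for WT-O2 (n = 4), 21.1 ± 0.529 for KO-RA (n = 3) and 20.7 ± 2.31 for KO-O2 (n = 3). The groups overlapped in every comparison. The edgeR fold for hyperoxia was 1.02 in WT mice, with a 95% interval of 0.848 to 1.24, and 0.983 in KO mice, with an interval of 0.791 to 1.22.

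Igf2, the fetal growth factor that is expressed from the paternal copy in most tissues, varied far more between mice than between groups. It had 215, 158, 111 and 164 CPM in WT-RA mice 1 to 4 and 168, 231, 162 and 155 CPM in WT-O2 mice 1 to 4. The KO-RA mice had 109, 259 and 301 CPM and the KO-O2 mice 194, 92.8 and 247 CPM. All groups overlapped, and the lowest values of the KO groups were those of KO-RA mouse 1 and KO-O2 mouse 2. The coefficient of variation within a group was 26.2% for WT-RA, 19.6% for WT-O2, 45.3% for KO-RA and 44.1% for KO-O2. The log2 difference KO-RA vs WT-RA was 0.46 with a 95% interval of -0.25 to 1.17, and that of WT-O2 vs WT-RA 0.14 with an interval of -0.52 to 0.80, so increases of over 1.5-fold lay within both intervals. The genes most like Igf2 in their deviations from the group means, among 14437 compared over the 14 libraries, were Cpq (r = 0.981), Flnc (r = 0.968) and Mrc2 (r = 0.964), given as a description.

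Igf1r, the receptor for both ligands, was highest in WT mice in room air. It had 57.3, 56.2, 46.3 and 47.7 CPM in WT-RA mice 1 to 4 and 43.0, 40.1, 42.1 and 45.4 CPM in WT-O2 mice 1 to 4. It had 41.9, 38.6 and 38.3 CPM in the KO-RA mice and 38.2, 43.2 and 46.5 CPM in the KO-O2 mice. All 4 WT-RA mice lay above all WT-O2 and all KO-RA mice, although WT-RA mice 3 and 4 exceeded WT-O2 mouse 4 by little, and KO-O2 mouse 3 lay within the WT-RA range. The group means were 51.9 ± 5.67 CPM for WT-RA, 42.6 ± 2.20 for WT-O2, 39.6 ± 2.02 for KO-RA and 42.6 ± 4.18 for KO-O2 (SD, n = 4, 4, 3 and 3).

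Igf1r was called lower in KO-RA than in WT-RA, with a log2 difference of -0.39 (SE 0.087, 95% interval -0.58 to -0.20), a fold of 0.763 and an adjusted p of 0.0109 by the quasi-likelihood F-test of edgeR and the Benjamini-Hochberg method. The two-sided exact permutation test gave p = 0.0571, the smallest that 3 against 4 mice allow. In WT-O2 vs WT-RA the log2 difference was -0.28 (SE 0.080, interval -0.45 to -0.11), with an edgeR p of 0.00305 and an adjusted p of 0.158, and an exact permutation p of 0.0286, the smallest that 4 against 4 mice allow. This difference did not pass the adjusted threshold in edgeR and was smaller than the 0.32 that a call needs. By DESeq2 it was -0.28 with an adjusted p of 0.0622, which passed the adjusted threshold, so only its size was short of a call there. In KO-O2 vs WT-O2 the log2 difference was 0.00 with an interval of -0.19 to 0.18, and in KO-O2 vs KO-RA it was 0.11 with an interval of -0.09 to 0.30. The interaction, a test of whether the hyperoxia difference was the same in both genotypes, was 0.39 on the log2 scale (SE 0.12) with an edgeR p of 0.00641 and an adjusted p of 1.00, so the hyperoxia response of Igf1r was not shown to differ between genotypes. Without WT-O2 mouse 4 the difference WT-O2 vs WT-RA was -0.31 (edgeR adjusted p = 0.174). The genes most like Igf1r in their deviations from the group means over the 14 libraries were Rtl3 (r = 0.953), Mast4 (r = 0.924) and Sema5a (r = 0.921).

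Insr, the insulin receptor, was nearly flat, with 38.0 to 46.6 CPM over all 14 libraries. Its means were 43.7 ± 3.38 for WT-RA, 42.0 ± 2.22 for WT-O2, 40.5 ± 2.23 for KO-RA and 43.4 ± 4.04 for KO-O2 (SD, n = 4, 4, 3 and 3). The edgeR interval for hyperoxia in WT mice ran from a fold of 0.864 to 1.07, and all group pairs overlapped. Igf2r, the scavenging receptor, had 28.3 to 39.7 CPM, with means of 32.5 ± 3.08 for WT-RA, 35.4 ± 2.98 for WT-O2, 30.1 ± 1.77 for KO-RA and 32.0 ± 3.15 for KO-O2. Its highest value was that of WT-O2 mouse 4 and its lowest that of KO-RA mouse 1, and its groups overlapped in every comparison. The log2 difference of Igf2r was 0.12 for hyperoxia in WT mice (95% interval -0.06 to 0.30) and -0.14 for KO-O2 vs WT-O2 (interval -0.33 to 0.05).

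**Figure D3:**
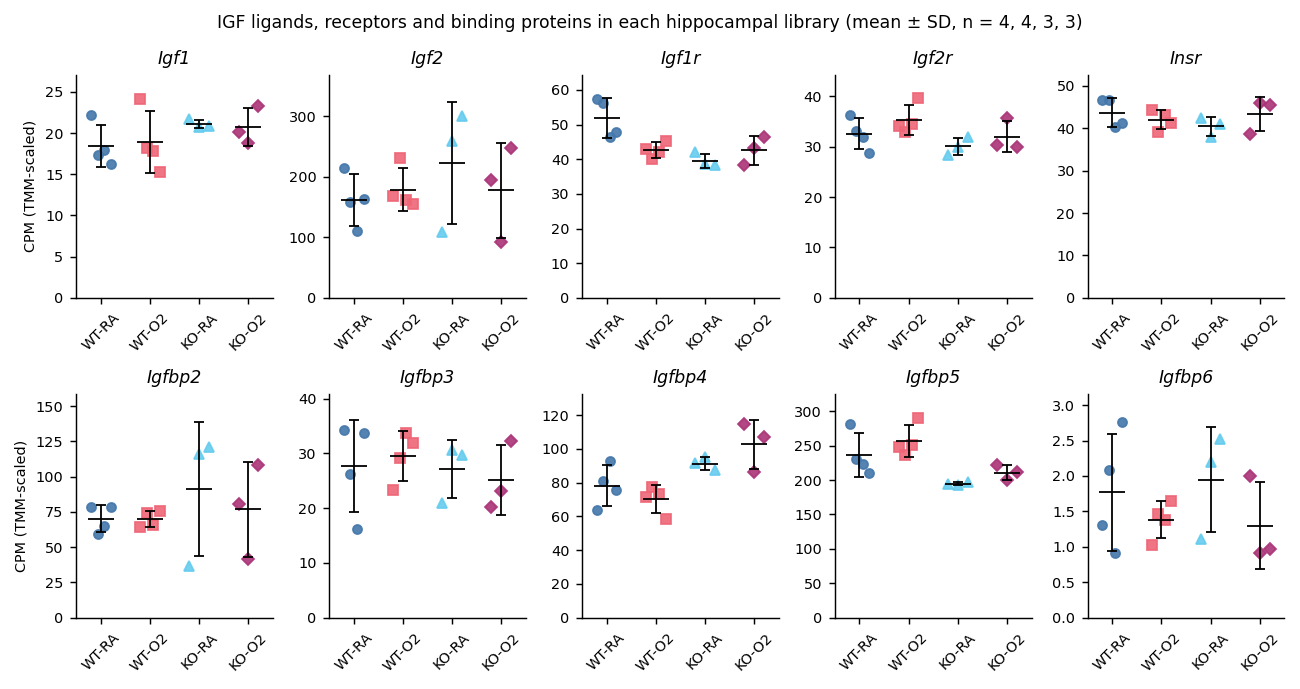
CPM of each of the 10 genes in every library, with points for single mice and bars for the group mean and SD (n = 4, 4, 3 and 3), each axis starting at 0. Igf1r in WT-RA lies above WT-O2 and KO-RA, Igfbp4 in KO-O2 above WT-O2, Igfbp5 in both KO groups below the WT group of the same exposure, and Igf2 and Igfbp2 spread widely in KO mice.

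Igfbp4, a binding protein that withholds IGFs until the protease PAPP-A cleaves it, was the other called gene. It had 63.7, 81.2, 92.8 and 75.4 CPM in WT-RA mice 1 to 4 and 71.3, 77.5, 73.5 and 58.4 CPM in WT-O2 mice 1 to 4. It had 91.6, 95.2 and 87.2 CPM in the KO-RA mice and 115, 86.5 and 107 CPM in the KO-O2 mice. All KO-O2 mice lay above all WT-O2 mice, whereas in room air WT-RA mouse 3 lay within the range of the KO-RA mice. The means were 78.3 ± 12.1 for WT-RA, 70.2 ± 8.26 for WT-O2, 91.3 ± 3.98 for KO-RA and 103 ± 14.6 for KO-O2 (SD, n = 4, 4, 3 and 3).

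Igfbp4 was called higher in KO-O2 mice than in WT-O2 mice with a log2 difference of 0.55 (SE 0.12, 95% interval 0.29 to 0.81), a fold of 1.46 and an adjusted p of 0.0156 by the quasi-likelihood F-test of edgeR and the Benjamini-Hochberg method. The two-sided exact permutation p was 0.0571, the smallest that this design allows. In KO-RA vs WT-RA the log2 difference was 0.22 (interval -0.04 to 0.48, edgeR adjusted p = 0.302). The difference between these genotype effects, 0.33 on the log2 scale, had an edgeR p of 0.0807 and an adjusted p of 1.00, so the genotype difference of Igfbp4 was not shown to depend on oxygen. WT-O2 mouse 4 had the lowest Igfbp4 of the 14 mice, and without it the difference was 0.48 (edgeR adjusted p = 0.0402). Without KO-RA mouse 1 and KO-O2 mouse 2 together it was 0.67 (edgeR adjusted p = 0.0157). The genes most like Igfbp4 in their deviations from the group means over the 14 libraries were Ubl7 (r = 0.876), Zfp703 (r = 0.869) and Grk6 (r = 0.869).

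Igfbp5, a binding protein that also attaches to the extracellular matrix, had the highest mean CPM of the family. It had 282, 230, 223 and 210 CPM in WT-RA mice 1 to 4 and 248, 237, 251 and 290 CPM in WT-O2 mice 1 to 4. It had 194, 192 and 197 CPM in the KO-RA mice and 222, 200 and 211 CPM in the KO-O2 mice. Within each exposure every KO mouse lay below every WT mouse, and within the KO mice every hyperoxia value lay above every room air value. The means were 236 ± 31.3 for WT-RA, 257 ± 23.1 for WT-O2, 194 ± 2.15 for KO-RA and 211 ± 11.0 for KO-O2 (SD, n = 4, 4, 3 and 3).

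The genotype difference of Igfbp5 was -0.28 on the log2 scale in room air (SE 0.091, 95% interval -0.48 to -0.09, edgeR adjusted p = 0.0663) and -0.28 in hyperoxia (SE 0.091, interval -0.48 to -0.09, edgeR adjusted p = 0.0876). Both passed the adjusted p, but the folds of 0.823 and 0.821 were short of the threshold, so neither was called. The exact permutation p was 0.0571 in both, the smallest that 3 against 4 mice allow, and 0.1 for hyperoxia in KO mice, the smallest that 3 against 3 mice allow. Without WT-O2 mouse 4 the difference in hyperoxia was -0.21 (edgeR adjusted p = 0.254). Without WT-RA mouse 1, the highest of its group, the difference in room air was -0.18 (edgeR adjusted p = 0.153). Without KO-RA mouse 1 and KO-O2 mouse 2 together, the differences in room air and hyperoxia were -0.27 (edgeR adjusted p = 0.191) and -0.24 (edgeR adjusted p = 0.301).

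Igfbp2, the main binding protein of cerebrospinal fluid, followed Igf2 from mouse to mouse in the KO groups. It had 78.3, 59.3, 65.1 and 78.6 CPM in WT-RA mice 1 to 4 and 64.5, 73.9, 65.9 and 75.4 CPM in WT-O2 mice 1 to 4. It had 36.5, 116 and 121 CPM in the KO-RA mice and 80.4, 41.3 and 108 CPM in the KO-O2 mice. The WT mice were closely grouped, KO-RA mouse 1 and KO-O2 mouse 2 were the lowest of all 14, and KO-RA mice 2 and 3 and KO-O2 mouse 3 were the highest. The log2 difference was 0.38 for KO-RA vs WT-RA (95% interval -0.33 to 1.08) and 0.13 for KO-O2 vs WT-O2 (interval -0.57 to 0.84), with all groups overlapping. When single mice were left out, the difference KO-RA vs WT-RA ran from 0.13 without KO-RA mouse 3 to 0.76 without KO-RA mouse 1 for Igfbp2, and from 0.20 without KO-RA mouse 3 to 0.79 without KO-RA mouse 1 for Igf2.

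The sum of the choroid plexus markers was lowest in the mice with the lowest Igf2 and Igfbp2. The summed CPM of 12 markers, which include Ttr, the transthyretin made by that epithelium, was 201 in KO-RA mouse 1 and 292 in KO-O2 mouse 2, against 1381 to 4287 in the other 12 mice. The other KO mice had 4287 and 4210 CPM (KO-RA mice 2 and 3) and 2365 and 4204 CPM (KO-O2 mice 1 and 3), and so held both the lowest and the highest sums of the study. By this sum KO mice thus fell into separate clusters of 2 and 4, each under 6 mice. No correlation of Igf2 or Igfbp2 with a marker score is therefore given for them. All 12 markers had at least 3 counts in every library. The 12 leptomeningeal and perivascular fibroblast markers also had their lowest KO sums in these mice, at 235 CPM in KO-RA mouse 1 and 261 CPM in KO-O2 mouse 2, against 323 to 376 CPM in the other KO mice, 179 to 291 CPM in WT-RA and 301 to 345 CPM in WT-O2. Pdgfra was the largest part of the fibroblast sum, with a mean of 97.2 CPM for WT-RA. Of the WT mice, WT-RA mouse 3 had the lowest fibroblast sum, the lowest choroid plexus sum and the lowest Igf2. The part of either marker list in the values of Igf2 and Igfbp2 was not tested. With KO-RA mouse 1 and KO-O2 mouse 2 left out, the log2 difference KO-RA vs WT-RA was 0.76 for Igfbp2 (edgeR adjusted p = 0.00786) and 0.80 for Igf2 (edgeR adjusted p = 0.0547), and both were called. Igfbp2 was then also called in KO-O2 vs WT-O2 (0.44, edgeR adjusted p = 0.0954). The mice left out were also those with the lowest Igf2 and Igfbp2, which raises these differences by construction. The calls of Igf1r in room air (-0.42, edgeR adjusted p = 0.0428) and of Igfbp4 in hyperoxia remained.

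**Figure D4:**
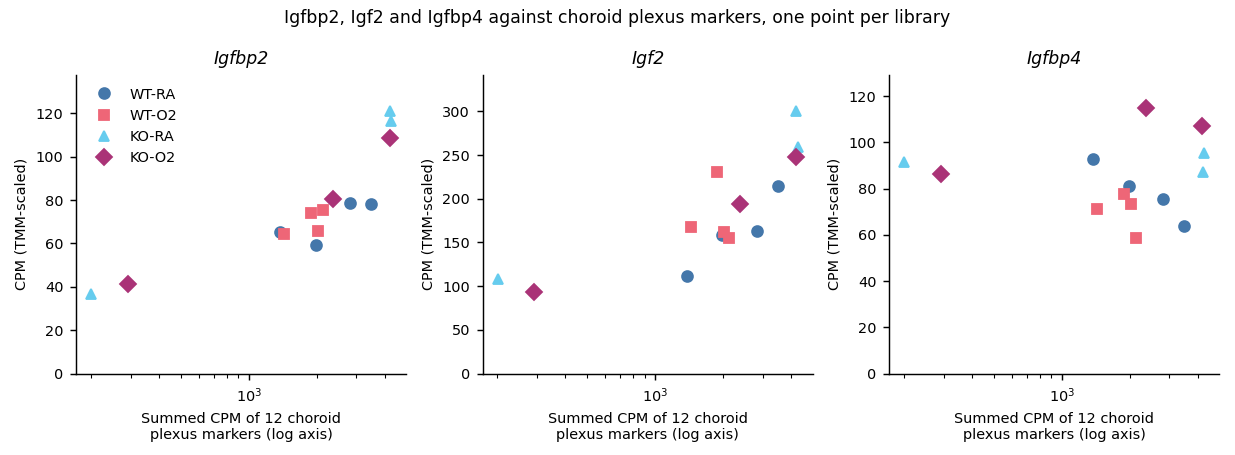
CPM of Igfbp2, Igf2 and Igfbp4 (vertical axes, from 0) against the summed CPM of 12 choroid plexus markers (log axis), 1 point per library. KO-RA mouse 1 (201 CPM) and KO-O2 mouse 2 (292 CPM) lie far to the left with the lowest Igfbp2 and Igf2, while their Igfbp4 (91.6 and 86.5 CPM) lies within the range of the other mice.

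Across the 8 WT mice, Pearson's r between the standardized choroid plexus score and log2 CPM was 0.726 for Igf2 (Spearman's rho 0.571, exact permutation p = 0.0455 and 0.151) and 0.664 for Igfbp2 (rho 0.786, exact permutation p = 0.0597 and 0.0279). With the 2 mice of the most distant scores left out, r was 0.0322 for Igf2, so that this relation rested on those mice, and 0.656 for Igfbp2. For the fibroblast score, r was 0.872 for Igf2 (rho 0.429, exact permutation p = 0.022 and 0.299), 0.0677 without the 2 most distant mice, and 0.258 for Igfbp2. Among the WT mice such values were not particular to these lists. For the astrocyte score, r was 0.741 for Igf2 (rho 0.429, exact permutation p = 0.0541 and 0.299) and -0.172 without the 2 most distant mice. For Igfbp2 it was 0.658 (rho 0.881, exact permutation p = 0.0673 and 0.00724) and 0.833 without the 2 most distant mice. These were among 220 relations of a marker list and a gene computed within a genotype, of which 0 had a Benjamini-Hochberg adjusted permutation p below 0.1 for r, the smallest being 0.204. In the 6 KO mice the smallest possible exact permutation p was 0.00278. Among 220 relations a single p of that size could not give an adjusted p below 0.1. The lack of one there therefore says little about KO mice. Among the KO mice the astrocyte sum was not lowest where Igf2 and Igfbp2 were. It was 4902 CPM in KO-RA mouse 1 and 4490 CPM in KO-O2 mouse 2, against 4154 to 4883 CPM in the other KO mice.

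Igfbp3, the main carrier of IGFs in blood, had 16.3 to 34.3 CPM, and both extremes fell within WT-RA. Its means were 27.7 ± 8.43 for WT-RA, 29.5 ± 4.49 for WT-O2, 27.1 ± 5.31 for KO-RA and 25.2 ± 6.36 for KO-O2 (SD, n = 4, 4, 3 and 3), and no groups were separated. Igfbp6, a binding protein that prefers IGF2, had 0.917 to 2.76 CPM, with means of 1.77 ± 0.820, 1.38 ± 0.262, 1.95 ± 0.740 and 1.30 ± 0.612 in the same order. Its edgeR interval for hyperoxia in WT mice ran from a fold of 0.463 to 1.32, so changes within that range could not be told from none.

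The wider pathway was described from 60 further genes, of which 53 passed the filter. Igfbp1, Igfals, Ins1 and Insrr were too low, and 3 imprinted genes were not analysed here. Hyperoxia gave 0 calls by edgeR in either genotype, with 9 of the 53 at an unadjusted p below 0.05 in WT mice and 2 in KO mice, beside 12.2% and 4.86% of all genes. DESeq2 called 2 of them in WT mice, Foxo1 and Stc1, named here after their values were seen. Between genotypes 7 of the 53 were called in room air (3 higher and 4 lower in KO) beside 10.4% of all genes, and 9 in hyperoxia (2 higher and 7 lower in KO) beside 6.86%. All directions given for these genes are those of KO mice relative to WT mice under the same exposure. The median log2 difference was -0.04 in room air and -0.07 in hyperoxia, beside -0.01 for all genes in both.

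Among the adaptors, Grb10, which restrains signalling from the IGF1 and insulin receptors, was lower in KO than in WT mice under both exposures. Its CPM was 37.1 to 57.2 for WT-RA, 42.0 to 61.2 for WT-O2, 24.4 to 31.9 for KO-RA and 24.6 to 27.5 for KO-O2, with no overlap between genotypes. The log2 difference was -0.65 in room air (SE 0.14, edgeR adjusted p = 0.0107) and -0.97 in hyperoxia (SE 0.15, edgeR adjusted p = 0.00166). Both calls held in all 14 fits that left out 1 mouse. Irs4, a substrate of the same receptors, had 4.76 to 15.7 CPM for WT-O2 and 0.215 to 1.65 CPM for KO-O2 (KO-O2 vs WT-O2 log2 difference -3.50, edgeR adjusted p = 0.0232), but 0.954 to 11.9 CPM for WT-RA, and its call was lost without KO-O2 mouse 1 or 3.

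Among the relatives of the binding proteins and the regulators of their cleavage, Igfbpl1, an IGFBP-like protein, was higher in KO than in WT mice under both exposures. It had 4.20 to 15.9 CPM for WT-RA, 12.4 to 20.6 for WT-O2, 26.4 to 32.5 for KO-RA and 27.4 to 31.6 for KO-O2. The log2 difference was 1.24 in room air (edgeR adjusted p = 0.0144), called in all 14 fits that left out 1 mouse, and 0.88 in hyperoxia (edgeR adjusted p = 0.0962), called in 4 of 14 and not without WT-O2 mouse 4. DESeq2 called Igfbpl1 in room air and not in hyperoxia. Htra1, a secreted protease that can cleave IGF binding proteins, was higher in KO-RA than WT-RA (0.33, edgeR adjusted p = 0.0185). Without WT-RA mouse 2 or KO-RA mouse 1 its difference was short of 0.32, while the adjusted p stayed at or under 0.0733 in all 14 fits. Stc2, an inhibitor of PAPP-A, was higher in KO-RA than WT-RA (0.68, edgeR adjusted p = 0.0873), called in 6 of 14 such fits. Its relative Stc1 was lower in KO-O2 than WT-O2 (-0.57, edgeR adjusted p = 0.0552), called in 9 of 14 and not without WT-O2 mouse 4.

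Downstream of the receptors, Pik3r3, a regulatory subunit of PI3-kinase, was lower in KO-RA than WT-RA (-0.34, edgeR adjusted p = 0.0063). Without WT-RA mouse 1 or 4 or KO-RA mouse 2 its difference was short of 0.32 in size, while the adjusted p stayed at or under 0.0385 in all 14 fits. Akt2, a kinase of the same pathway, was higher in KO-O2 than WT-O2 (0.35, edgeR adjusted p = 0.0494), a call lost without WT-O2 mouse 2 or 4 or KO-O2 mouse 1. The other 20 genes of the PI3K, Akt and mTOR list were called in neither genotype comparison. In the growth hormone axis, the receptor gene Ghr (-0.33, edgeR adjusted p = 0.0432) and the transcription factor gene Stat5b (-0.53, edgeR adjusted p = 0.0553) were lower in KO-O2 than WT-O2, called in 10 and 9 of 14 fits without 1 mouse. Without WT-O2 mouse 4 the call of Stat5b was lost and that of Ghr was kept, whereas DESeq2 called Stat5b and did not call Ghr. Cish, a feedback inhibitor of cytokine receptors, was lower in KO-RA than WT-RA (-0.59, edgeR adjusted p = 0.0711), called in 9 of 14.

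Of the genes tied to Igf2, Igf2bp2, which encodes an RNA-binding protein of Igf2 mRNA, was lower in KO-RA than WT-RA (-0.81, edgeR adjusted p = 0.0354), a call lost without KO-RA mouse 1. The imprinted genes Peg3 (-0.45, edgeR adjusted p = 0.0213) and Dlk1 (-1.85, edgeR adjusted p = 0.0956) were lower in KO-O2 than WT-O2. The call of Peg3 was lost without KO-O2 mouse 1 or 3, and that of Dlk1 held in 4 of 14 fits without 1 mouse, not in that without WT-O2 mouse 4. Dlk1 had 0.530 to 12.5 CPM for WT-RA and 5.53 to 12 CPM for WT-O2, against 2.41 to 4.13 CPM for KO-RA and 2.24 to 3.26 CPM for KO-O2. The part of the striatal, thalamic and oligodendrocyte markers in these differences was not tested.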

How the data were processed

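RNA-seq of hippocampal polyA RNA was analysed in 14 mice, 1 library each. The values deposited by the authors are estimated counts for each gene, obtained with Kallisto and collapsed by tximport, and the submitters' processing notes name GRCm39 and DESeq2. Tool versions and count scaling are not given in the sources used here. Counts were rounded, filtered with filterByExpr, which left 16637 of 36118 genes, and TMM-scaled. All 14 libraries entered 1 model of group means without covariates (edgeR 4.0.16, R 4.3.3). The quasi-likelihood F-test was used with Benjamini-Hochberg adjustment over all genes tested, and a gene was called at a 1.25-fold difference or more in either direction (0.32 on the log2 scale), with p below 0.05 and adjusted p below 0.1. Single genes were also compared by two-sided exact permutation of log2 CPM (prior count 2, scipy 1.17.1). All columns were mapped to mice by their animal numbers. Mice are numbered within their group in record order.

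The members, the pathway and marker lists and the tests were chosen with earlier results of these data known. All 10 members are named, as are the pathway genes called in any comparison, and the 3 genes closest to each called member and to Igf2. The alternatives were DESeq2 1.42.0, its size factors, library size, no filter, at least 10 counts in every library, the compared groups alone, a fold of 1.5, an adjusted p of 0.05, WT-O2 mouse 4 placed in WT-RA, each mouse left out and, chosen after seeing the data, KO-RA mouse 1 and KO-O2 mouse 2 both left out. Depth was similar across libraries, so precision is set mainly by the number of mice.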

Additional observations from a re-analysis of the deposited data

How the results depend on the processing

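Igf1r in KO-RA vs WT-RA was called under 23 of 24 alternatives, with a log2 difference of -0.44 to -0.33, and Igfbp4 in KO-O2 vs WT-O2 under 23 of 24, with 0.46 to 0.67. The exception in both was the 1.5-fold threshold, which left 0 called genes of the 10 in either comparison by its construction. In KO-RA vs WT-RA the count of called genes of the 10 was 2 with WT-O2 mouse 4 placed in WT-RA, 3 without both KO mice low in choroid plexus markers (chosen after seeing the data), and 1 to 2 when single mice were left out. It was 2 without WT-RA mouse 4, which added Igfbp5 (-0.33), and 2 without KO-RA mouse 1, which added Igfbp2 (0.76). In KO-O2 vs WT-O2 the count was 2 without both KO mice. Igfbp2 in KO-O2 vs WT-O2, 0.13 over all mice, ranged from -0.20 without KO-O2 mouse 3 to 0.43 without KO-O2 mouse 2 when single mice were left out. Igf1r in WT-O2 vs WT-RA was called under none of 24, with an adjusted p from 0.0622 by DESeq2, which is below 0.1, to 0.414 by edgeR without WT-O2 mouse 2. Of the 50 combinations of gene and comparison, 44 were called under no setting, and 19 of these changed sign under some alternative, each with a log2 difference of at most 0.252 in size over all mice with the settings reported.

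For the other pathway genes, WT-O2 vs WT-RA had 2 calls by DESeq2 and 0 to 1 when single mice were left out. The 1 call was Foxo1 without WT-RA mouse 1 and Irs4 without WT-RA mouse 4. KO-RA vs WT-RA had 4 without both KO mice, 4 without WT-RA mouse 2, 3 without KO-RA mouse 1 and 4 without KO-RA mouse 2. KO-O2 vs WT-O2 had 4 at a fold of 1.5, 5 at an adjusted p of 0.05, 5 with WT-O2 mouse 4 placed in WT-RA, 3 without WT-O2 mouse 2, and 2 without KO-O2 mouse 1 or without KO-O2 mouse 3. Over all genes, the calls in WT-O2 vs WT-RA numbered 107, against 310 by DESeq2, 6 with WT-O2 mouse 4 placed in WT-RA, and 33, 13 and 59 without WT-O2 mouse 1, 2 or 3, 272, 22 and 177 without WT-RA mouse 1, 2 or 4, and 64 without KO-RA mouse 2. In KO-O2 vs KO-RA they numbered 0 to 13 over the alternatives. Those in KO-RA vs WT-RA went from 1738 to 1076 without KO-RA mouse 1, and those in KO-O2 vs WT-O2 from 1142 to 675 without KO-O2 mouse 3. Where no construction shows it, the cause was not tested. No paired analysis was possible because the labels give the groups no shared replicate numbers. With 3 or 4 mice per group, and 3 in each KO group, differences in Igf2, Igfbp2 and Igfbp6 within their wide intervals could not be resolved.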
